A study of Mus musculus with 2 samples.

Results

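Neutrophils of aged mouse limb muscle were described here in 2 single-cell RNA libraries, where they numbered 110 of 10891 cells. A cell was taken as a neutrophil when it held at least 1 UMI (unique molecular identifier, a counted RNA molecule) of at least 3 of 7 genes, Csf3r, Cxcr2, Retnlg, Il1r2, Hdc, Trem1 and Clec4d, and under 2 UMIs each of the macrophage gene C1qa, the endothelial gene Cdh5 and the fibroblast gene Pdgfra. Barcodes under 500 genes, or over 10% mitochondrial UMIs, were left out first. The levels of these 10 genes chose the cells, so they are given as a description.

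The study treated aged C57BL/6 mice by intraperitoneal injection with Maraviroc (MVC) or with its solvent DMSO, and asked how the treatment changed the cells of aging muscle. Each group was 1 library of live mononuclear cells sorted from limb muscle after red cells had been lysed. The paper describes the libraries beside its regime of high dose and short term, the labels name no dose, and the number of mice pooled in each was not given in the sources used here. With 1 library per group no test between groups was possible, and treatment cannot be told apart from animal, preparation or sequencing. Every interval below is a 95% interval for counting error only.

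Neutrophils are short-lived phagocytes made in the bone marrow. During maturation they make their granules in order, first the primary granules with myeloperoxidase (Mpo) and neutrophil elastase (Elane), then the specific granules with lactoferrin (Ltf), cathelicidin (Camp) and neutrophilic granule protein (Ngp), then the gelatinase granules with Mmp8 and Mmp9. Mature cells stop making most granule RNA, carry large amounts of the S100a8 and S100a9 pair (calprotectin), leave the marrow under Csf3r and Cxcr2 signals, and, once in tissue, make chemokines such as Cxcl2, Ccl3 and Ccl4 that draw in further leukocytes. In muscle they are the early arrivals after injury and are sparse at rest.

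The DMSO library held 69 neutrophils among 5437 kept cells, or 1.27% (0.989 to 1.60, exact Clopper-Pearson interval), and the MVC library held 41 among 5454, or 0.752% (0.540 to 1.02). The MVC share was lower by 0.517 percentage points (Newcombe interval of MVC minus DMSO -0.905 to -0.142). After every kept cell was thinned to 1000 UMIs and the rule was applied again, 57 of 5387 DMSO cells (1.06%) and 29 of 5222 MVC cells (0.555%) met it. The median neutrophil held 6734 UMIs and 1600 genes in DMSO and 6710 UMIs and 1692 genes in MVC, with upper quartiles of 8778 and 11553 UMIs. The neutrophils of the DMSO library summed to 552664 UMIs and those of the MVC library to 326677, so that 1 UMI was worth 1.81 and 3.06 CPM (UMIs of a gene per 1000000 UMIs of the cells summed). The libraries shared 9 cell barcodes, of which 0 were neutrophils, and 0 of the 110 cells were called as doublets against simulated doublets.

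The 7 rule markers were all present in 37 DMSO and 22 MVC cells, and 6 of them in a further 17 and 7 cells. The cells just inside the rule, with 3 markers, were 5 in DMSO and 7 in MVC. Of the cells just outside it, with 2 markers, there were 34 in DMSO, 0 of which held an S100a9 UMI, and 43 in MVC, 1 of which held 85 UMIs of S100a9 and 125 of S100a8. The genes C1qa, Cdh5 and Pdgfra removed 12 DMSO and 5 MVC cells that had the markers, and 7 of the 12 DMSO cells had 6 or 7 of them. Over the cells kept as neutrophils, the granulocyte colony-stimulating factor receptor Csf3r was at 1122 CPM in DMSO and 765 CPM in MVC, and the chemokine receptor Cxcr2 at 385 and 404 CPM. Hdc, the enzyme that makes histamine, was at 1138 and 1231 CPM, the amplifying receptor Trem1 at 384 and 242 CPM, and the lectin Clec4d at 2285 and 1475 CPM.

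S100a8 and S100a9, which the rule did not use, were read as a check of the label. S100a8 lies on chromosome 3 at 90668978 to 90670035 (mm10, plus strand) and S100a9 next to it at 90692632 to 90695721 (minus strand). Per neutrophil, S100a9 ran from 0 UMIs over a median of 387 to 2362 in DMSO and from 0 over 309 to 2316 in MVC. The summed level of S100a8 was 45624 CPM in DMSO neutrophils and 55814 CPM in MVC neutrophils, against at most 71.6 CPM in endothelial cells, fibro-adipogenic progenitors, macrophages, B cells or T and NK cells of either library. Most cells therefore carried the calprotectin pair, and a minority carried none of its S100a9 RNA. S100a9 was at 0 UMIs in 7 of 69 DMSO cells (10.1%) and 6 of 41 MVC cells (14.6%), and 12 of these 13 cells had only 3 or 4 rule markers.

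**Figure D1:**
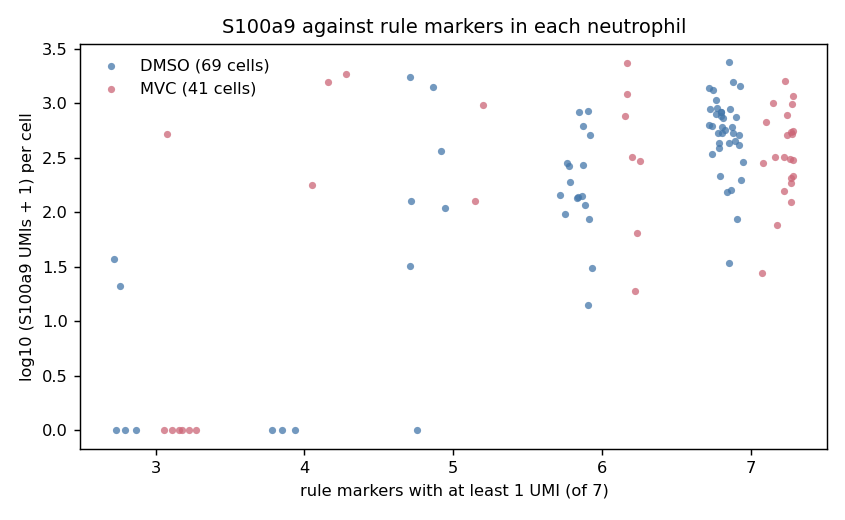
Each point is 1 neutrophil, placed by the number of rule markers it held (x axis, of 7) and by its S100a9 count as log10 of UMIs plus 1 (y axis), in blue for DMSO and red for MVC. The 7 DMSO and 6 MVC cells without S100a9 sit at 0 and nearly all have 3 or 4 markers, while every cell with 6 or 7 markers holds S100a9.

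The 13 cells without S100a9 went against the label in their other genes too, and are called S100a9-zero cells below. They were large, with 8042 to 19308 UMIs in DMSO and 7597 to 16534 in MVC, and held 19.0% and 22.9% of all neutrophil UMIs. Their mitochondrial share was 1.59% to 2.75% in DMSO and 1.57% to 2.21% in MVC, against a median of 0.178% and 0.158% in the cells with S100a9. Cxcr2 and the gelatinase Mmp9 were at 0 UMIs in them in both libraries, and Retnlg, a resistin-like peptide of neutrophils, was at 0 UMIs in DMSO and 1 in MVC. Compared with the S100a9-positive cells, 350 of 1788 genes were past 2-fold higher in both libraries (19.6%) and 254 were past 2-fold lower (14.2%). Fibronectin (Fn1) had 115 UMIs in the 7 DMSO cells against 20 in the 62 others, and 74 in the 6 MVC cells against 0 in the 35 others. The lysosomal protease cathepsin S (Ctss) was 14.4-fold higher in DMSO (9.33 to 22.7) and 143-fold higher in MVC (38.4 to 1197), and Ms4a6c had 53 and 34 UMIs against 10 and 0. Some genes rested on 1 cell: 91.3% of the 161 DMSO UMIs of Cd74, the class II invariant chain, and 97.6% of the 423 DMSO UMIs of the growth factor Nrg1 came from 1 cell each. Since S100a9-zero and S100a9-positive cells were divided after their values had been seen, these differences are a description. Results below that change over the 62 DMSO and 35 MVC cells with S100a9 are given over them too.

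Markers of other cell types were read over whole lists. Of 8 macrophage markers, 5 had a UMI, with C1qc, Cd163 and Pf4 at 0, and the list summed to 193 UMIs in DMSO and 76 in MVC neutrophils, of which 93 and 21 were in S100a9-positive cells. The 6 monocyte markers summed to 488 and 376 UMIs, of which 192 and 178 were in S100a9-positive cells. The 6 B cell markers summed to 46 and 8 UMIs. All 46 were in S100a9-positive cells, and 43 of the 46 were in 1 DMSO cell. The B cell gene Ebf1 had 29 UMIs in 4 S100a9-positive DMSO cells with at least 4 rule markers. The 8 T and NK markers summed to 6 and 17 UMIs, of which 14 were Nkg7 in 1 MVC cell. Platelet markers were at 0 in both libraries, endothelial markers summed to 32 and 28 UMIs, and red cell markers to 7 and 13. The part of these genes in the results below was not tested beyond the values given without the S100a9-zero cells.

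Granule genes divided the S100a9-positive neutrophils. The cells with at least 10 UMIs of Ngp, a line drawn after the values had been seen, numbered 8 in DMSO and 12 in MVC and are called Ngp-high, and those below it numbered 54 and 22 and are called Ngp-low. The median Ngp-low cell held 5826 UMIs in DMSO and 4296.5 in MVC, so that UMIs per Ngp-low cell below compare cells of unlike depth. Few cells were near the line, with 2 in each library between 5 and 20 UMIs. Per Ngp-high cell, Ngp ran from 48 to 579 UMIs in DMSO and from 17 to 574 in MVC. Camp, which encodes the antimicrobial peptide precursor, had 2104 UMIs in the 8 Ngp-high and 0 in the 54 Ngp-low cells of DMSO, and 2757 in the 12 and 0 in the 22 of MVC. Ltf, which encodes iron-binding lactoferrin, had 1016 against 1 UMI in DMSO and 877 against 0 in MVC. These 3 specific granule genes were thus carried by the same few cells. A further MVC cell stood apart from all others, with 93 UMIs of Mpo, 244 of Elane, 140 of Camp, 602 of S100a8 and 17265 UMIs in all, and is called the Mpo-high cell.

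The promoters of the genes that divide these cells are printed so that the genes of the Ngp-high cells can be set beside S100a8 and S100a9, which all S100a9-positive cells carried. Each is the 250 bases before the RefSeq start of the gene (GRCm38.p6), written 5′ to 3′ on the strand of the gene, and capitals mark matches on either strand to TTGCNNAA, a C/EBP-type motif, or to GAGGAA, the core letters of PU.1. The 2 motifs did not overlap in these windows. Of 32841 RefSeq promoters of the same length, 9.57% held TTGCNNAA and 23.3% held GAGGAA.
Ngp, chr9:110419558-110419807, plus strand: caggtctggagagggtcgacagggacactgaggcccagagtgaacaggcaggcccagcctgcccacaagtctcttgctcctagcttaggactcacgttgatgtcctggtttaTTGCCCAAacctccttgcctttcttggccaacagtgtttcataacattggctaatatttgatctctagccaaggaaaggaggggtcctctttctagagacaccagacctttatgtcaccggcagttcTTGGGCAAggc
Camp, chr9:109849457-109849706, minus strand: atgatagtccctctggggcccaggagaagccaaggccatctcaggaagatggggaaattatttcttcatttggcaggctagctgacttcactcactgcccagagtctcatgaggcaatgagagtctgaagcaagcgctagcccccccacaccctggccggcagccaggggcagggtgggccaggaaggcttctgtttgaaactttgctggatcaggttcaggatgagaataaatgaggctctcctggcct
Ltf, chr9:111019042-111019291, plus strand: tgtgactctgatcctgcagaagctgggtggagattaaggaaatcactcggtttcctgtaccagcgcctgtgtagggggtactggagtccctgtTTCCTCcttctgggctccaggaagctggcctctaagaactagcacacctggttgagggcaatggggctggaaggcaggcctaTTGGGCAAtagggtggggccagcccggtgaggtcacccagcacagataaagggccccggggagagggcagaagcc
S100a8, chr3:90668821-90669070, plus strand: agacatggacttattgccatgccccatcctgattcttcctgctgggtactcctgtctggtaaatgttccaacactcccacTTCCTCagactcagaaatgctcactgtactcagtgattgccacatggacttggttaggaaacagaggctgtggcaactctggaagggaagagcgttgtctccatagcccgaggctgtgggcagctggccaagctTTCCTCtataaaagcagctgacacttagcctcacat
S100a9, chr3:90695722-90695971, minus strand: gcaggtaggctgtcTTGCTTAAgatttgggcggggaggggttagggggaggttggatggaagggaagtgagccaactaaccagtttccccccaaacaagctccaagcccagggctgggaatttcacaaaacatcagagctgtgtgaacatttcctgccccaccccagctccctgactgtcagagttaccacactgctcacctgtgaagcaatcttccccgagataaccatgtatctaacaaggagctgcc
Ngp held 2 matches to TTGCNNAA, Ltf 1 of each motif, S100a8 2 matches to GAGGAA, S100a9 1 match to TTGCNNAA, and Camp held 0 of both in this window. A match is a run of letters and not a shown binding site. The GENCODE start of S100a8 given earlier lies inside its printed window, upstream of the RefSeq start. The end of that window, with the second GAGGAA match, therefore lies within the gene as GENCODE places it.

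Ngp-high and Ngp-low cells differed in the same direction in both libraries for many genes besides those granule genes. Of 1588 genes, 104 were past 2-fold higher in Ngp-high cells in both libraries (6.55%) and 255 were past 2-fold lower (16.1%). The higher genes included Lcn2, which encodes the siderophore-binding protein lipocalin 2, at 5.56-fold in DMSO (5.02 to 6.15) and 8.64-fold in MVC (7.0 to 10.8), and the collagenase Mmp8 at 7.69-fold and 4.43-fold. The surface protein Cd177 was 15.5-fold and 18.2-fold higher, and Cybb, the catalytic subunit of the NADPH oxidase, was 25.9-fold and 11.1-fold higher. S100a8 itself was 2.05-fold and 2.40-fold higher in Ngp-high cells. The lower genes included genes of sensing and signalling. Cd14, a co-receptor for bacterial lipopolysaccharide, stood at 0.177 of its Ngp-low level in DMSO and 0.276 in MVC. The cytokine Il1b stood at 0.366 and 0.126, and Cxcl2 at 0.360 and 0.288. In DMSO, 1 Ngp-high cell of 21530 UMIs held all 61 Ngp-high UMIs of Il1b and 111 of the 138 of Cxcl2. The ferritin heavy chain Fth1 stood at 0.331 and 0.490. Retnlg, by contrast, was 1.80-fold and 1.88-fold higher in the Ngp-high cells. A lone Ngp-high MVC cell held 9 UMIs of the proliferation gene Mki67, beside 574 of Ngp and 966 of Camp.

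**Figure D2:**
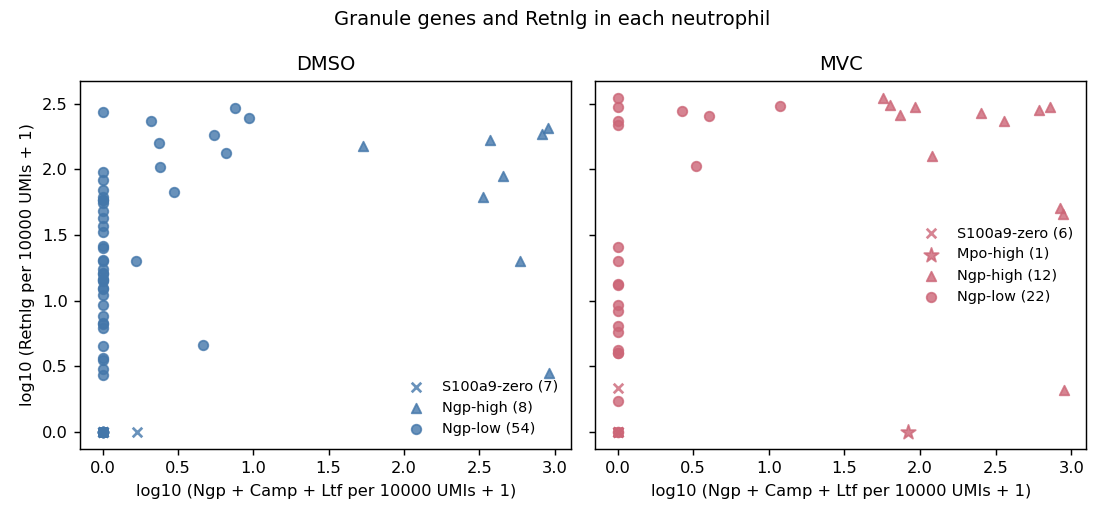
Each point is 1 neutrophil of the DMSO (left) or MVC (right) library, with the summed UMIs of Ngp, Camp and Ltf per 10000 UMIs of the cell on the x axis and Retnlg per 10000 on the y axis, both as log10 of the value plus 1. Triangles mark Ngp-high cells (8 and 12), circles Ngp-low cells (54 and 22), crosses S100a9-zero cells (7 and 6) and the star the Mpo-high cell, and in MVC the Ngp-low cells fall into a group with much Retnlg and a group with little.

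Retnlg ordered the Ngp-low cells in a further way. The 27 DMSO cells with more Retnlg had a median of 57.9 UMIs per 10000 and the 27 with less had 3.49, while the 11 MVC cells with more had a median of 231 and the 11 with less 3.22. Of 1659 genes, 47 were past 2-fold higher in the cells with more Retnlg in both libraries (2.83%) and 78 were past 2-fold lower (4.7%), again as a description of a division made on these cells. Mmp8 was 7.74-fold higher in DMSO and 7.48-fold in MVC, Cxcr2 2.29-fold and 2.12-fold, the formyl peptide receptor Fpr1 2.28-fold and 3.21-fold, and S100a8 2.11-fold and 2.70-fold. The MVC value of Mmp8 came from 36 against 5 UMIs, and 23 of the 36 were in 1 cell. Ccl3 stood at 0.237 and 0.271 of its level in the cells with less Retnlg, and the stress-response factor Atf3 at 0.304 and 0.0761. In MVC the Ccl3 value came from 6 against 23 UMIs, and 19 of the 23 were in 1 cell. The endoplasmic reticulum chaperone Hspa5 stood at 0.358 and 0.200. Its DMSO value came from 36 against 90 UMIs. Over all Ngp-low DMSO cells with at least 4 rule markers Hspa5 had only 80, so its DMSO value rests in large part on cells with 3 rule markers. These genes were picked by their values, and Cxcr2 is a rule marker. Other genes of the same kinds were mixed. Clec4e, a receptor, stood at 0.807 in DMSO and 1.23 in MVC, and the chaperone Hspa8 at 0.774 and 2.08. Cd14 was lower in both libraries, at 0.666 and 0.471.

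Against the other classes of the same libraries, neutrophils were set apart by more than the calprotectin pair. Slc7a11, the cystine transporter, was at 5236 CPM in DMSO and 2966 CPM in MVC neutrophils, against 177 and 243 CPM in macrophages and at most 136 CPM in the other 4 classes. Acod1, which makes itaconate, was at 1554 and 1019 CPM, against 48.1 and 24.1 CPM in macrophages. Il1b was at 1714 and 2020 CPM, against 819 and 483 CPM in macrophages. Macrophages held more of the other chemokines: Cxcl2 was at 10869 and 4872 CPM there against 3539 and 1806 CPM in neutrophils, and Ccl4 at 4521 and 3188 CPM against 304 and 132 CPM. The classes were chosen by expression, so these differences are descriptions.

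Between the libraries, the make-up of the neutrophils differed. Ngp-high cells were 8 of 62 S100a9-positive neutrophils in DMSO (12.9%, 5.74 to 23.9) and 12 of 35 in MVC (34.3%, 19.1 to 52.2), a difference of 21.4 percentage points (Newcombe interval 4.29 to 39.1). As a share of all kept cells, S100a9-positive neutrophils were lower in MVC by 0.499 points (interval of MVC minus DMSO -0.865 to -0.146). The Ngp-low cells, 54 and 22, were 0.993% of kept cells in DMSO and 0.403% in MVC. Share and make-up thus both differed, and the main genes below are given over all neutrophils and over the Ngp-low cells alone.

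Over all neutrophils, 1698 genes had a mean of the 2 levels of at least 100 CPM. Of these, 39 were past 2-fold higher in MVC (2.3%) and 48 past 2-fold lower (2.83%), on log2 of CPM plus 10, with a median of -0.03. Over the S100a9-positive cells, 89 of 1619 genes were past 2-fold higher (5.5%) and 96 lower (5.93%). Over the Ngp-low cells, 88 of 1656 were past 2-fold higher (5.31%) and 83 lower (5.01%), with a median of 0.04. The counts of each gene list below are read against these shares.

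The gene with the lowest ratio was Ifitm1, an interferon-induced membrane protein on chromosome 7 at 140967221 to 140969825 (plus strand). It had 716 UMIs in the 69 DMSO neutrophils and 22 in the 41 MVC neutrophils, or 1296 CPM (1202 to 1394) against 67.3 CPM (42.2 to 102). The ratio of MVC over DMSO was 0.0520 (0.0324 to 0.0793). In Ngp-low cells the count per cell ran from 0 over a median of 7 to 68 in DMSO and from 0 over 0 to 3 in MVC, so that the ranges overlapped at the low end. Among the Ngp-low cells with at least 4 rule markers, 42 of 52 in DMSO and 8 of 22 in MVC held a UMI, so some DMSO cells held none. A UMI was found in 65.2% of DMSO and 24.4% of MVC neutrophils, in 46.4% and 9.76% after thinning to 1000 UMIs, and in 2.28% and 2.60% of endothelial cells, whose median depth was 4349 and 4239 UMIs. The difference lay in the Ngp-low cells: the 8 DMSO and 12 MVC Ngp-high cells held 6 and 9 UMIs. It was present at either level of Retnlg, with 423 against 5 UMIs in the cells with more and 287 against 8 in the cells with less. Ifitm1 shares 11.6% of its 31-base words with other genes, which leaves part of its reads uncertain.

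The neighbours of Ifitm1 differed from it in size. Ifitm2 was at 1909 CPM in DMSO and 1108 CPM in MVC, a log2 ratio of -0.78, but 55.5% of its 31-base words occur in other genes, so its level is uncertain. Ifitm3 was at 588 and 533 CPM (log2 ratio -0.14) and Ifitm6 at 467 and 661 CPM (0.49). Of 27 interferon-induced genes on the list, 6 were measured, 1 was past 2-fold lower and 0 were past 2-fold higher in MVC, with a median of -0.06. Ifitm1 was therefore alone on its list in passing 2-fold over all neutrophils, and over Ngp-low cells Isg15 was past 2-fold higher, with 25 and 17 UMIs.

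Wfdc17, an activated-macrophage and neutrophil gene of the whey acidic protein family on chromosome 11 at 83703991 to 83706268, had 1066 UMIs in DMSO and 89 in MVC, or 1929 CPM against 272 CPM. Its ratio was 0.141 (0.112 to 0.175) over all neutrophils and 0.0786 (0.0496 to 0.119) over Ngp-low cells, where the median cell held 11 UMIs in DMSO and 0 in MVC. A UMI was found in 84.1% and 36.6% of neutrophils, in 63.8% and 22% after thinning, and in 1.04% and 0.785% of endothelial cells. Slpi, a protease inhibitor of the same family that guards tissue against elastase, had 1671 and 348 UMIs, or 3024 and 1065 CPM, a ratio of 0.352 (0.313 to 0.396). The median Ngp-low cell held 17.5 UMIs of Slpi in DMSO and 5 in MVC, and the ranges, 0 to 91 and 1 to 34, overlapped widely. Slpi was also lower in Ngp-high cells of MVC, with a ratio of 0.423. Wfdc17 had 15 against 0 UMIs there, but the 15 were in 2 of 8 DMSO cells, and 12 of them in 1 cell.

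Cd14 had 1029 UMIs in DMSO and 182 in MVC, or 1862 CPM against 557 CPM, a ratio of 0.299 (0.254 to 0.351). Cd14 was found in 54 of 54 Ngp-low DMSO cells, with a median of 11.5 and a highest count of 54 UMIs, and in 13 of 22 Ngp-low MVC cells, with a median of 1 and a highest count of 17. After thinning, 71.0% of DMSO and 24.4% of MVC neutrophils kept a UMI, against 5.10% and 4.89% of endothelial cells before it. Among the other receptors measured, the lectin Clec4e, which senses mycobacterial glycolipid and dead cells, was at 1384 and 885 CPM (log2 ratio -0.64), the chemokine receptor Ccr1 at 606 and 438 CPM (-0.46) and the complement receptor C5ar1 at 418 and 352 CPM (-0.24). Of 20 receptors on the list 13 were measured, and Cd14 was the 1 past 2-fold, with a median of -0.36 over the list. Over S100a9-positive cells the tumour necrosis factor receptor Tnfrsf1b was past 2-fold lower too, with 245 and 57 UMIs, and over Ngp-low cells, where the median was -0.01, Cxcr4 was past 2-fold higher.

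**Figure D3:**
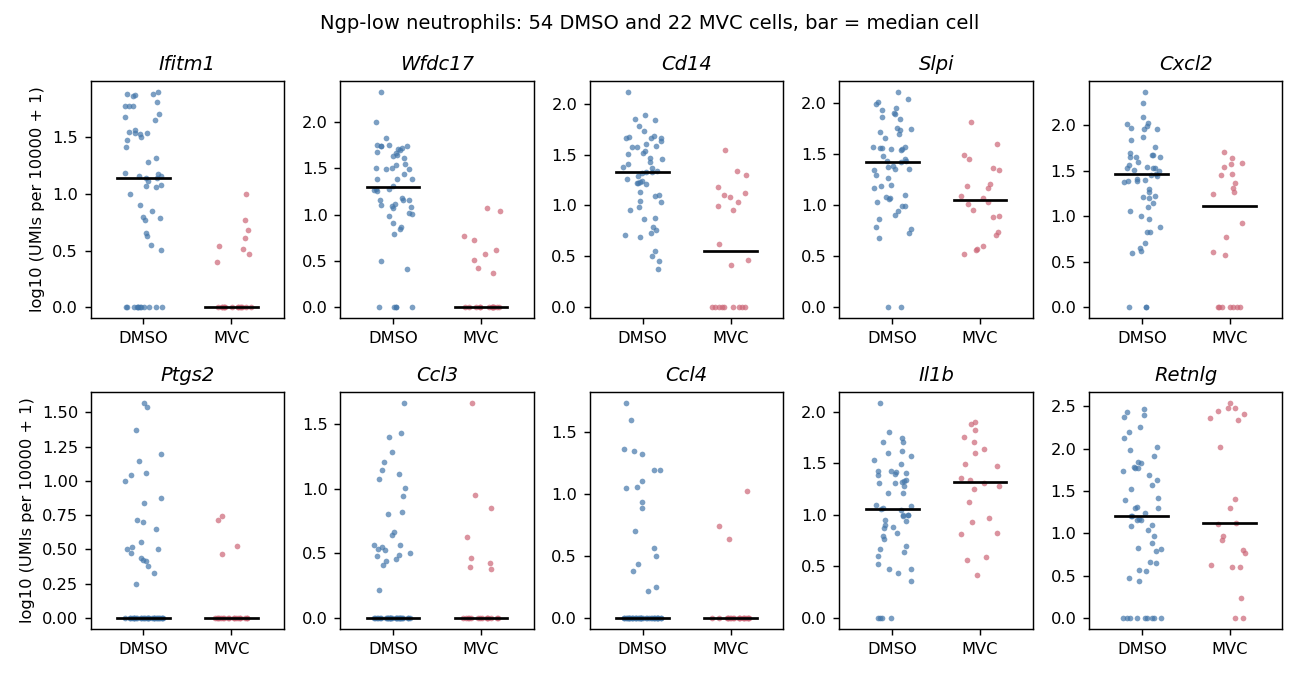
Each point is 1 Ngp-low neutrophil (54 DMSO in blue, 22 MVC in red) and the black bar is the median cell; the y axis is log10 of UMIs per 10000 UMIs of the cell plus 1. Median cells of Ifitm1 and Wfdc17 are at 0 in MVC and above 10 per 10000 in DMSO, Cd14, Slpi and Cxcl2 are lower in MVC with overlapping cells, and Il1b is not.

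Of 19 cytokines and chemokines on the list 8 were measured, 3 were past 2-fold lower in MVC (Ccl3, Ccl4 and Il1rn) and 0 higher, with a median of -0.65. Over S100a9-positive cells 4 of 6 were past 2-fold lower, with a median of -1.44, and over Ngp-low cells 2 of 8, with a median of -0.36. Cxcl2, a ligand of Cxcr2 that recruits neutrophils, had 1956 UMIs in DMSO and 590 in MVC, a ratio of 0.510 (0.465 to 0.560), although 1 S100a9-zero cell held 43.7% of the MVC UMIs. Over Ngp-low cells, where the median cell held 16 and 4.5 UMIs, the ratio was 0.394 (0.334 to 0.463). Endothelial cells also carried Cxcl2, with a UMI in 25.5% and 19.8% of them, against 87.0% and 61.0% of neutrophils. Ptgs2, the inducible cyclooxygenase of prostaglandin synthesis, had 236 and 64 UMIs over all neutrophils and 167 and 5 over Ngp-low cells, a ratio there of 0.0950 (0.0304 to 0.226). It was found in 24 of 54 Ngp-low DMSO cells and 4 of 22 MVC cells. A DMSO cell of 21882 UMIs with 3 rule markers held 43.7% of the Ngp-low DMSO UMIs of Ptgs2. Over the 52 DMSO and 22 MVC Ngp-low cells with at least 4 rule markers, Ptgs2 had 93 and 5 UMIs. The ratio there was 0.154 (0.0487 to 0.372).

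Ccl3 and Ccl4, chemokines that attract leukocytes, lie near each other on chromosome 11 at 83647844 to 83649355 and 83662584 to 83664683. Ccl3 had 201 UMIs in DMSO and 57 in MVC neutrophils, a ratio of 0.480 (0.351 to 0.647). An Ngp-high cell held 35.3% of the DMSO UMIs and an S100a9-zero cell 42.1% of the MVC UMIs. Over Ngp-low cells Ccl3 had 129 and 29 UMIs, a ratio of 0.713 (0.459 to 1.07) whose interval included 1. The share of neutrophils with a Ccl3 UMI was 40.6% in DMSO and 24.4% in MVC, and after thinning 13% and 17.1%, so no order is read from it. Ccl4 had 168 and 43 UMIs, a ratio of 0.433 (0.302 to 0.608), but 81.4% of the MVC UMIs came from 1 S100a9-zero cell. Over Ngp-low cells Ccl4 had 157 and 8 UMIs, a ratio of 0.162 (0.0686 to 0.326), found in 19 of 54 and 3 of 22 cells. The related chemokine Ccl5 had 0 UMIs in DMSO and 43 in MVC, all in 2 S100a9-zero cells with 33 and 10.

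Interleukin 1 genes had no common direction. Il1b, the cytokine, had 947 and 660 UMIs, or 1714 CPM (1606 to 1826) against 2020 CPM (1869 to 2181), a ratio of 1.18 (1.07 to 1.30). Over S100a9-positive cells the ratio was 0.918 (0.802 to 1.05), and over Ngp-low cells 1.58 (1.37 to 1.82), with medians of 6.5 and 9 UMIs per cell. Il1rn, the receptor antagonist, had 213 and 50 UMIs, a ratio of 0.397 (0.286 to 0.543), which over Ngp-low cells was 0.834 (0.576 to 1.18). The decoy receptor Il1r2, a rule marker, was at 660 and 643 CPM.

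Of 10 specific granule genes 8 were measured, 1 was past 2-fold higher in MVC (Camp) and 0 lower, with a median of 0.47 over all neutrophils. Over S100a9-positive cells Camp was again the 1 past 2-fold, and over Ngp-low cells 2 of 3 measured were past 2-fold lower, Lcn2 and Chil3, the latter with 72.3% of its DMSO UMIs in 1 cell. Ngp was at 4567 CPM in DMSO and 8280 CPM in MVC, a ratio of 1.81 (1.72 to 1.91), and Camp at 3807 and 8868 CPM, a ratio of 2.33 (2.20 to 2.47). Camp was found in 7 of 69 DMSO neutrophils (10.1%) and 13 of 41 MVC neutrophils (31.7%), and in 0.198% and 0.121% of endothelial cells. Within Ngp-high cells the ratio was 0.853 (0.808 to 0.901) for Ngp, 1.04 (0.980 to 1.10) for Camp and 0.684 (0.624 to 0.749) for Ltf. Within Ngp-high cells, Ngp and Ltf were thus lower in MVC and Camp differed by less than its counting error. Lcn2 was also found in 46 of 54 Ngp-low cells in DMSO and 16 of 22 in MVC, where it was at 1795 CPM in DMSO and 872 CPM in MVC. The primary granule genes Elane, Prtn3 and Mpo had 1, 3 and 0 UMIs in DMSO and 244, 164 and 93 in MVC, of which all but 2 were in the Mpo-high cell.

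Retnlg was at 5155 CPM in DMSO (4967 to 5348) and 10319 CPM in MVC (9974 to 10673), a ratio of 2.0 (1.90 to 2.11). It is a rule marker, so its level in the cells is partly set by the choice of cells. Over Ngp-high cells the ratio was 1.89 (1.75 to 2.04), and over Ngp-low cells 1.81 (1.68 to 1.95). S100a8 and S100a9 differed little, with ratios of 1.22 (1.20 to 1.25) and 1.06 (1.04 to 1.07) over all neutrophils and log2 ratios of -0.08 and -0.16 over Ngp-low cells. Of 14 neutrophil genes that the rule did not use, 14 were measured, 0 were past 2-fold higher and 2 past 2-fold lower, with a median of 0.00. The 2 were Asprv1, a skin-type aspartic protease, with 95 and 13 UMIs, and Lrg1, a secreted leucine-rich glycoprotein, with 79 and 19.

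**Figure D4:**
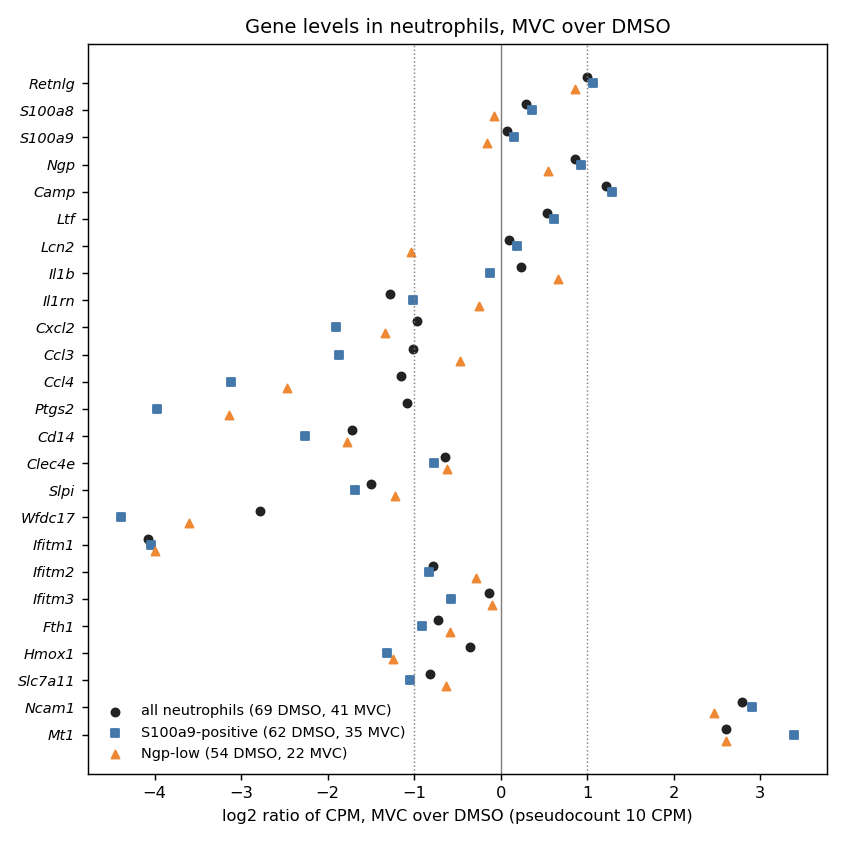
The x axis is the log2 ratio of CPM plus 10, MVC over DMSO, for the genes named on the y axis, over all neutrophils (black circles), S100a9-positive cells (blue squares) and Ngp-low cells (orange triangles); dotted lines mark 2-fold. Ifitm1 lies at -4.08, -4.05 and -4.00, Retnlg near 1 in each, while Lcn2, Il1b, Ptgs2, Ccl4 and Hmox1 change place with the cells taken.

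Of 7 iron genes 5 were measured, and 0 passed 2-fold over all neutrophils, with a median of -0.43. Over S100a9-positive cells 1 of 5 was past 2-fold lower in MVC (Hmox1), with a median of -0.85, and over Ngp-low cells the same gene was, with a median of -0.16. Fth1, the iron-storing ferritin heavy chain, was at 21235 CPM in DMSO and 12863 CPM in MVC, a ratio of 0.606 (0.585 to 0.628), and the median Ngp-low cell held 231 and 182 UMIs per 10000. Hmox1, which breaks down heme, was at 3508 and 2743 CPM over all neutrophils, a ratio of 0.782, and over Ngp-low cells had 1120 and 148 UMIs (log2 ratio -1.25). Without the 2 DMSO cells of only 3 rule markers it had 772 and 148 UMIs there, a log2 ratio of -0.86, which was not past 2-fold. Within Ngp-high cells Hmox1 was instead higher in MVC, with 46 and 115 UMIs, a ratio of 1.98 (1.40 to 2.85). Fth1 was at a ratio of 0.986 (0.896 to 1.09) in those cells. Slc7a11 was at a ratio of 0.566 (0.526 to 0.609) over all neutrophils and 0.657 within Ngp-high cells. Macrophages of the same libraries had a ratio of 0.639 for Fth1 and 0.727 for Hmox1, and 1.38 (1.13 to 1.68) for Slc7a11. Of the 6 NADPH oxidase genes, all measured, 0 passed 2-fold, with a median of 0.17, and Cybb was at 478 and 891 CPM (log2 ratio 0.89). Within Ngp-high cells, however, Cybb was lower in MVC, with 190 and 176 UMIs, a ratio of 0.734 (0.594 to 0.906). Over Ngp-low cells with at least 4 rule markers it had only 11 and 14 UMIs.

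Other lists of cell handling and signalling had 0 members past 2-fold over all neutrophils. Of 16 genes of cytoskeleton and migration 16 were measured, of 9 adhesion genes 6, of 14 NF-kB feedback genes 10, of 21 early response genes 13, of 12 heat shock genes 7 and of 14 survival genes 8, and their medians were -0.05, -0.06, -0.33, -0.29, 0.11 and -0.29. Some lists had members past 2-fold in part of the cells, and these are named because they passed. Of the NF-kB feedback genes 3 of 10 were past 2-fold lower in MVC over S100a9-positive cells (Tnfaip2, Tnip1 and Sod2), with a median of -0.58, and 2 of 11 over Ngp-low cells (Tnip1 and Sod2), with a median of -0.22. Tnip1, which restrains NF-kB signalling, had 75 and 13 UMIs over S100a9-positive cells, a ratio of 0.308 (0.157 to 0.560). Of the early response genes 1 of 13 was past 2-fold lower over S100a9-positive cells (Ier5), and 2 of 13 were past 2-fold higher over Ngp-low cells (Fos and Ier3), with a median of 0.57 there. The chaperone gene Hspa1b was past 2-fold higher over Ngp-low cells, with 63.0% of its MVC UMIs in 1 cell, and Tmsb10 of the migration list past 2-fold lower, with 49.3% of its DMSO UMIs in 1 cell. Within Ngp-high cells the chaperone gene Hsp90aa1 had 169 and 48 UMIs, a ratio of 0.225 (0.160 to 0.312). Hsp90ab1, Hspa5 and Hspa8 stood at 0.288, 0.290 and 0.565 there. Over Ngp-low cells with at least 4 rule markers these 4 genes stood at 2.04, 1.24, 1.11 and 0.974. Hsp90aa1 and Hspa8 share 51.4% and 43.5% of their 31-base words with other genes. Cxcr4, the marrow-homing receptor that is higher on aged neutrophils, had 33 UMIs in each library, or 59.7 CPM in DMSO and 101 CPM in MVC, a ratio of 1.69 (1.01 to 2.83). Over Ngp-low cells it had 23 and 17 UMIs, a log2 ratio of 1.12, and over those with at least 4 rule markers 0.98. Of 12 measured genes of glycolysis and hypoxia 0 passed 2-fold, with a median of 0.19, and of 6 measured transcription factors of granulopoiesis, among them Cebpb at 1574 and 1209 CPM and Spi1 at 364 and 383 CPM, 0 passed, with a median of 0.00. Of 13 circadian genes 0 reached the level needed to be measured.

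**Figure D5:**
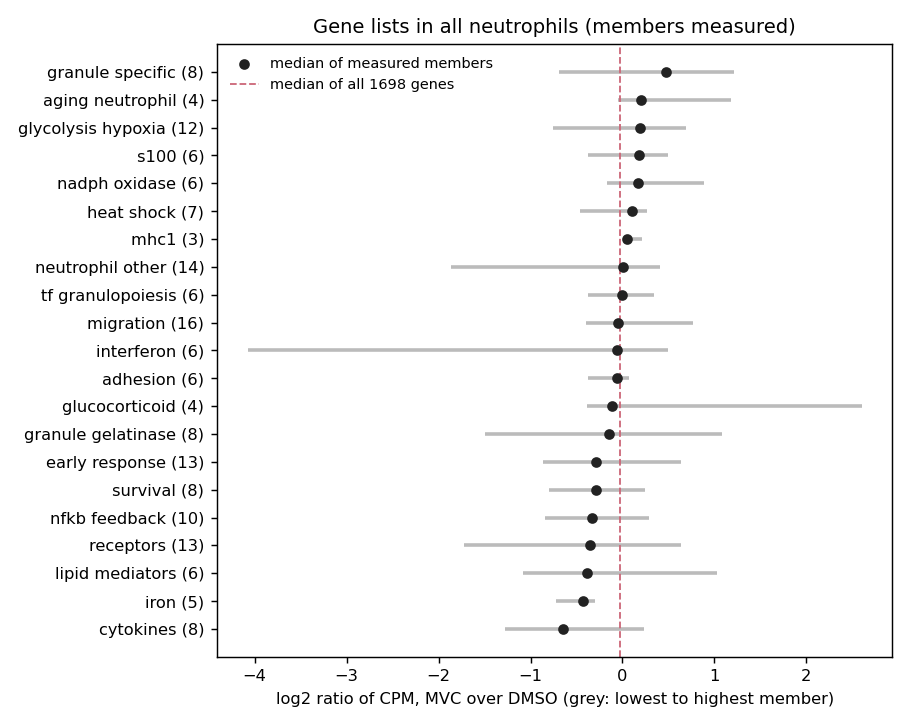
Points are the medians of the log2 ratio, MVC over DMSO, over the measured members of each gene list in all neutrophils (number in brackets), grey lines run from the lowest to the highest member, and the dashed line is the median of all 1698 genes, -0.03. Lists with under 3 measured members and the primary granule and class II lists, which rest on single cells, are left out; the cytokine list lies at -0.65 and the specific granule list at 0.47.

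The genes with the highest ratios, of which no cell held over 25% of the UMIs, were led by Ncam1, a neural cell adhesion molecule, with 28 UMIs in DMSO and 134 in MVC, a ratio of 8.10 (5.36 to 12.6). It was found in 5 of 69 and 11 of 41 neutrophils, and 112 of the 134 MVC UMIs were in Ngp-high cells, where the ratio was 4.44 (2.74 to 7.54). The other 9, in the order of their log2 ratios, were Myo5a, Vps13b, Abca13, Rpl35, Rab44, Sgms1, Cask, Cd47 and Rab27a. Myo5a, a vesicle motor, had 38 and 63 UMIs, a ratio of 2.80, and Rab27a, which serves granule release, 49 and 68, a ratio of 2.35. Within Ngp-high cells Rab27a had 32 and 44 UMIs, a ratio of 1.09 (0.675 to 1.77), and Abca13 a ratio of 1.29 (0.865 to 1.96). Rpl35, Cask and Cd47 were at 2.57, 1.52 and 1.47 there, with intervals that included 1. Myo5a, Vps13b, Rab44 and Sgms1 were at 3.04, 3.11, 3.56 and 4.26 in those cells, with intervals above 1. Cd47, the signal that shields cells from phagocytes, had 107 and 148 UMIs, a ratio of 2.34 (1.81 to 3.03), which over Ngp-low cells was a log2 ratio of 0.32. The ribosomal gene Rpl35, with 32.9% of its 31-base words in other genes, was at a log2 ratio of 1.26 over all and -0.10 over Ngp-low cells.

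The remaining genes with the lowest ratios were regulators and enzymes. Gadd45b, a stress-induced growth arrest gene, had 224 and 38 UMIs (log2 ratio -1.72), the chromatin factor Arid5b 422 and 82 (-1.57), the sialyltransferase St8sia4 265 and 53 (-1.51), Fnip2, a partner of folliculin, 522 and 108 (-1.49), and Atp6v1b2, a subunit of the vacuolar proton pump, 181 and 38 (-1.42). Over Ngp-low cells their log2 ratios were -1.37, -1.85, -2.56, -1.0 and -1.50. These 5 genes were thus at or past 2-fold lower in the Ngp-low cells as well.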

How the data were processed

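Cells from limb muscle were captured on the 10x Genomics platform in 1 DMSO and 1 MVC library. Per the labels, the authors mapped reads to mm10 with Cell Ranger 7.0.0 and used Seurat 5.0.1, and deposited a matrix of raw UMI counts per gene and cell for each library (32285 genes, 5812 DMSO and 6047 MVC barcodes). Whether intron reads were counted was not given in the sources used here. From the deposited counts, barcodes under 500 genes or over 10% mitochondrial UMIs were dropped, after the study's methods, leaving 5437 and 5454 cells with a median of 5802 and 5195 UMIs. Neutrophils were chosen by the rule given above. The rule and the gene lists were chosen with earlier results of these data known, and the divisions by S100a9, Ngp, Mpo and Retnlg were set after values had been seen.

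UMIs were summed over the cells of a library and divided by their total (CPM). Genes with a mean of both libraries of at least 100 CPM were counted as past 2-fold on log2 of CPM plus 10. Intervals of 95% were exact Poisson for levels, exact conditional for ratios, Clopper-Pearson for shares and Newcombe for differences of shares (SciPy 1.17.1, Python 3.11.15). They cover counting error only, and with 1 library per group no test was run. The script for gene levels was checked on simulated counts. For shares of cells with a UMI, cells were also thinned to 1000 UMIs, which left out 0 neutrophils, 5 DMSO and 27 MVC endothelial cells. Doublets were called per library against simulated doublets, which marked 236 DMSO (4.34%) and 238 MVC cells (4.36%), and called doublets were kept. The genes named were the rule genes and markers, up to 4 members with the highest level of each list plus any member past 2-fold, the 10 highest and 10 lowest ratios of which no cell held over 25% of the UMIs, the 20 genes with the highest level, and Ccl3, Ccl4 and Ccl5. A small number of genes under this rule are not reported here and were left out of the lists. Ctsg, Ms4a3, F13a1, Mrc1, Mki67, Cxcr4, Mxd1, Nkg7 and Ebf1, the genes named for differences between groups of neutrophils, and list members past 2-fold in S100a9-positive or Ngp-low cells alone, were chosen after their values were seen. Gene positions are from GENCODE M21 (GRCm38), and promoters from RefSeq (GRCm38.p6). Gm42418 and Cmss1 overlap on the genome, so their levels are uncertain. Other cell and gene filters, marker minimums, pseudocounts, weights and scalings were tried.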

Additional observations from a re-analysis of the deposited data

Results flagged for a closer look

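For 5 genes the neutrophils and the macrophages of the same libraries (80 DMSO and 119 MVC cells) differed in the direction of MVC over DMSO, with counting intervals on opposite sides of 1, but with 1 library per group the difference was not tested. The sialyltransferase gene St8sia4 had a ratio of 0.338 (0.247 to 0.456, from 265 and 53 UMIs) in neutrophils and 1.31 (1.04 to 1.66) in macrophages. The scaffold gene Cask had 2.43 (1.69 to 3.51, from 53 and 76 UMIs) in neutrophils and 0.743 (0.592 to 0.932) in macrophages. The metallothionein gene Mt1 had 7.82 (4.51 to 14.4, from 16 and 74 UMIs) and 0.614 (0.567 to 0.665), with 66.2% of the MVC UMIs in the Mpo-high cell. A UMI of Mt1 was found in 15.9% and 26.8% of neutrophils and in 33.1% and 33.6% of endothelial cells. The class II gene H2-Eb1 had 0.453 (0.282 to 0.705, from 97 and 26 UMIs) and 1.26 (1.16 to 1.37), with 71.1% of the DMSO UMIs in 1 cell. The mannose receptor gene Mrc1 had 0.201 (0.0773 to 0.440, from 59 and 7 UMIs) and 1.11 (1.04 to 1.19), with 98.3% of the DMSO UMIs in 1 S100a9-zero cell.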

How the results depend on the processing

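No paired analysis was possible because each group was 1 library with no replicate number, and no replicate could be left out. The share of neutrophils stayed lower in MVC under every cell filter, marker minimum, exclusion and depth setting tried, by 0.445 to 0.646 percentage points. The share with an Ifitm1 UMI stayed lower by 36.6 to 44.4 points, with 36.6 and 42.0 in 2 draws of the thinning. The counts past 2-fold depended most on the filter on low levels: against 39 higher and 48 lower, a mean of at least 30 CPM gave 181 and 138, and no filter 749 and 365. At least 2 rule markers gave 61 higher, at least 4 gave 90 lower, no exclusion genes 87 lower and a pseudocount of 50 gave 23 lower. Restrictions were added after seeing the data: S100a9-positive cells gave 89 and 96, Ngp-low cells 88 and 83, Ngp-low cells with at least 4 rule markers 85 higher, and at least 5 rule markers is given below.

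The cytokine median, -0.65 as reported, was -0.066 with at least 2 rule markers, -1.31 with at least 4, -1.16 with at least 5, -0.34 with no exclusion genes, -1.19 with 0 UMIs of them, -1.12 without the top cell of each gene and -1.44 in S100a9-positive cells. The specific granule median, 0.47, was -1.03 in Ngp-low cells. Of the genes past 2-fold over all neutrophils, these changed sign, and the cause was not tested: Ccl4 to 0.93 with at least 2 rule markers; Mt1 to -1.69, H2-Eb1 to 1.84 and Mrc1 to 0.12 with no exclusion genes, and Mrc1 to 0.54 without its top cell. In Ngp-low cells Rpl35 went to -0.10, Elane and Prtn3 to -0.36 and Lta4h to -0.35 (-0.034 with at least 4 rule markers). Genes within 2-fold changed sign too, among them Lcn2 and S100a8 in Ngp-low cells and Il1b in S100a9-positive cells. Of the other values of single genes and lists, 2323 moved by less than their counting interval and 514 by more. With 41 MVC neutrophils, genes under 3 UMIs (9.18 CPM) could not be told from 0.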

Other observations

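Further gene lists were read over all neutrophils as values only. Of 6 measured lipid mediator genes, Ptgs2 was past 2-fold lower and Lta4h, which makes leukotriene B4, was past 2-fold higher in MVC with 62 and 78 UMIs, and the median was -0.39. Of the Lta4h UMIs, 52 and 69 were in Ngp-high cells, where its ratio was 1.05 (0.723 to 1.54). Of 8 measured gelatinase granule genes, Padi4, the enzyme of histone citrullination, was past 2-fold higher with 41 and 55 UMIs and Slpi past 2-fold lower, with a median of -0.14. Mmp8 was at 659 CPM in DMSO and 765 CPM in MVC. Of 6 measured S100 genes 0 passed 2-fold, with a median of 0.18. Of 4 measured genes of neutrophil aging 1 was past 2-fold higher (Cd47), with a median of 0.20. Of 4 measured glucocorticoid-responsive genes 1 was past 2-fold higher (Mt1), with a median of -0.11.

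Class I presentation genes differed little between the libraries in neutrophils. B2m was at 621 CPM in DMSO and 637 CPM in MVC, H2-K1 at 270 and 279 CPM and H2-D1, which shares 26.7% of its 31-base words with other genes, at 928 and 1077 CPM. The 4 measured class II genes had a median of -0.69, and at least 65.0% of the UMIs of each, in each library, came from 1 cell. Of 11 cell cycle genes only Hmgb2 was measured, at 758 and 857 CPM. Among markers of further cell types, mast cell and basophil genes summed to 0 and 3 UMIs, eosinophil genes to 3 and 1, dendritic cell genes to 6 and 5, satellite cell genes to 0 and 2, mural genes to 18 and 11, Schwann cell genes to 46 and 27, and fibro-adipogenic progenitor genes to 84 and 63.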
